A study of Rattus with 9 samples.

Results

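Biliary epithelial cells (BEC) of the rat bile duct that carried RNA of both Scgb1c1 and Ttr were examined in single-cell RNA sequencing (scRNA-seq) data. The cells were chosen by a rule on measured values, namely at least 1 unique molecular identifier (UMI, 1 captured RNA molecule) of Scgb1c1 and at least 1 of Ttr in a barcode that passed an epithelial gate. The gate required 3 of the 5 genes Epcam, Krt7, Krt8, Krt18 and Krt19, no UMI of Ptprc or Dcn, and insulin and other islet hormone RNA under 2% and 1% of UMIs. It held 25047 BEC among 150379 kept barcodes of the whole series, and 444 of these BEC were double positive. The remaining 24603 gated BEC are called other BEC. The 9 samples came from 20 libraries. The sham group had 3 samples of 1 library each. The liver transplantation (LT) group had a day 1, a day 3 and a day 7 sample, with ischemic injury of the graft and 9 libraries in all. The raised-flow group had the transplantation plus tied splenic and gastric-duodenal arteries, done to raise arterial flow to the graft, sampled on the same days, with 8 libraries in all. The labels name the tissue as bile duct and the animals as rats, and give no strain, age or sex. The paper credits its rat bile duct scRNA-seq of days 1, 3 and 7 after LT to the authors' prior studies. For its own rat experiments its methods name Sprague-Dawley rats of both sexes, several weeks old. They also name transplantation by the cuff technique after warm ischemia, and do not describe the raised-flow arm. Whether these details hold for the 9 samples is not stated.

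Scgb1c1 encodes a secretoglobin, a member of a family of small proteins that secretory epithelia release into their fluid. Ttr encodes transthyretin, the carrier of thyroxine and of retinol-binding protein, which is best known from liver and choroid plexus. BEC line the bile ducts, modify bile with water and bicarbonate under the control of secretin, and hold a mucosal barrier of mucins, trefoil peptides and antimicrobial proteins.

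Nothing in the labels tells whether libraries are separate animals or pools, so the libraries of each sample were summed. The p-values measure the spread between these samples, which may be technical and, among transplanted samples, includes differences between days. Libraries held 14398295 to 109245177 UMIs, empty barcodes included. No doublet caller was run. A rule that leaves out the deepest BEC and BEC with markers of other cell types kept 307 of 444 double-positive BEC and 22287 of all 25047 gated BEC, and 16 of 29 double-positive BEC in LT at day 1. Double-positive BEC were deep cells. Their median was 8125 to 10695 UMIs per cell in the sham samples, 7864.5 to 32316 in the LT samples and 12910 to 20344 in the raised-flow samples, against 2583 to 6999 in other BEC over all 9 samples. No barcode of a double-positive BEC was shared by 2 libraries' double-positive cells, and 16 were also kept in another library. Free RNA was estimated from marker genes that include Tagln, Col1a1 and Col3a1, as their UMIs in the cells over those expected from empty barcodes. It came to 0.806% to 13.4% of all UMIs of the double-positive BEC. RNA of these markers held by the cells themselves is counted too. The 13.4% was LT at day 7, with 209 Tagln UMIs in its double-positive BEC, and its other BEC had 5.55%. The share of free RNA in the Scgb1c1 and Ttr UMIs of double-positive BEC is low by construction, because the cells were chosen for these UMIs. In other BEC it came to 38.2% of the Scgb1c1 UMIs in sham 1 and 1.04% to 6.68% in the other samples. Its part in the double-positive BEC with a single Scgb1c1 UMI was not tested. Among 48215 leukocytes (Ptprc detected, none of the 5 epithelial genes), 0 held both genes, which allows a share of up to 0.00622%, but their median depth was 3671 UMIs against 12130 in double-positive BEC. Their shares with Scgb1c1 alone reached 0.604% and with Ttr alone 2.16%. Leaving out barcodes with any of the 5 epithelial genes also lowers all these leukocyte shares, so they are no background for the rule.

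Of the 6 markers given for these cells, Scgb1c1 and Ttr were the rule itself, the keratins Krt8 and Krt18 were among the 5 genes of the gate, Akr1c15 was widespread and Gast was not a marker. Akr1c15, an aldo-keto reductase, was detected in 284 of 444 double-positive BEC. Its level was 1778, 1322 and 1180 CPM (UMIs of the gene per 1e6 UMIs of the summed cells) in the sham samples, 389, 120 and 17.7 in LT at days 1, 3 and 7, and 800, 555 and 591 with raised flow, whereas other BEC held 78.5 to 962. The ranges overlap, and Akr1c15 was higher in the double-positive BEC of 7 of 9 samples. Gast, which encodes gastrin, was detected in only 23 of 444 cells, and 278 of its 306 UMIs lay in 1 cell of sham 3. No Gast UMI was found in the double-positive BEC of sham 1 or of any LT sample. These cells are therefore described by their rule and leading genes, and Gast is not used as a mark of them.

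Double-positive BEC were a larger share of the gated BEC in sham than in transplanted ducts. They were 2.11% (18 of 852), 5.54% (113 of 2038) and 8.02% (163 of 2032) of gated BEC in sham 1, 2 and 3. In LT they were 0.582% (29 of 4983), 0.887% (7 of 789) and 0.559% (16 of 2862) at days 1, 3 and 7. With raised flow they were 1.10% (40 of 3628), 0.991% (30 of 3028) and 0.579% (28 of 4835). In LT at day 3, 1 library held 723 of the 789 gated BEC and all 7 double-positive BEC. The other libraries of that sample kept 437 of 2923 and 337 of 4312 barcodes with over 400 genes. The lowest sham sample lay above the highest transplanted sample, and the exact (Clopper-Pearson) 95% intervals of these 2 samples overlapped, at 1.26% to 3.32% and 0.789% to 1.50%, which cover counting error only. Sham averaged 5.23% ± 2.97 (SD, n = 3) and the transplanted samples 0.783% ± 0.240 (SD, n = 6), a difference of -4.44 percentage points (exact two-sided permutation test, p = 0.0238, the smallest this design can give). LT alone differed from sham by -4.55 points and raised flow by -4.34 points, each with p = 0.1 in the exact permutation test, the smallest that 3 against 3 samples allow. Leaving out sham 1, 2 or 3 gave p = 0.0714 in the exact permutation test, the smallest that 2 against 6 samples allow. After thinning every cell to 2000 UMIs, the expected share was 1.13%, 3.73% and 5.00% in sham and 0.0592% to 0.415% in the transplanted samples, with 6603 shallower BEC left out. The rule needs a UMI of each gene, so fewer such cells and less Scgb1c1 or Ttr RNA per cell cannot be told apart from these shares.

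**Figure D1:**
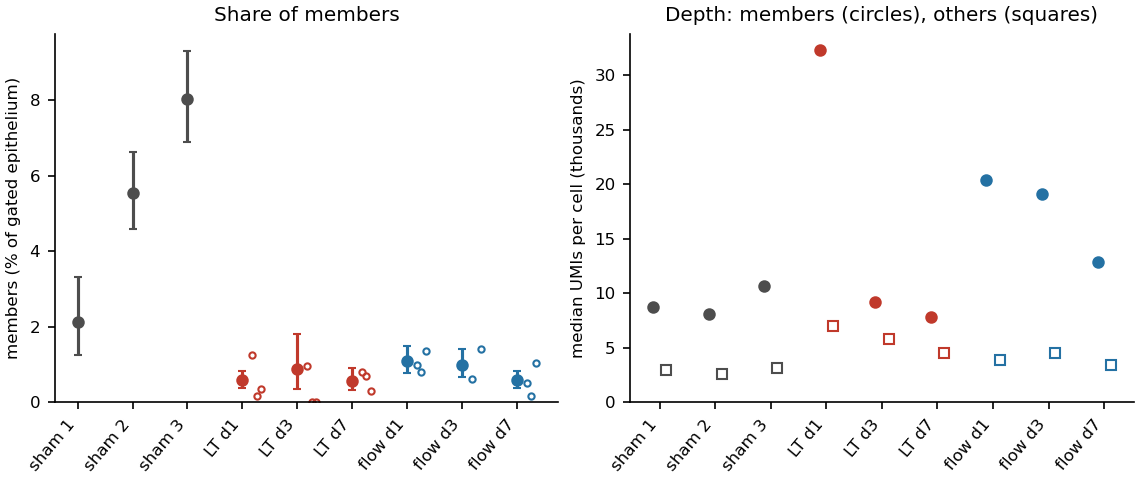
Left, double-positive BEC as a percent of gated BEC in each sample (filled points, bars are exact 95% intervals) and in each library where a sample had several (open points). Right, median UMIs per cell in double-positive BEC (circles) and other BEC (squares). Sham samples ran from 2.11% to 8.02% and transplanted samples from 0.559% to 1.10%, and double-positive BEC were deeper than other BEC in every sample.

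Of the 2 genes of the rule, Ttr CPM within the double-positive BEC was lower in every transplanted than in every sham sample. Scgb1c1 CPM within these cells overlapped between the groups. This is a description, because both genes chose the cells. Scgb1c1 reached 351, 877 and 1127 CPM in the double-positive BEC of sham 1, 2 and 3. It was 60.1, 468 and 460 CPM in LT at days 1, 3 and 7, where 65.1% of the day 3 UMIs and 43.3% of the day 7 UMIs came from 1 cell each. It was 61.7, 93.5 and 124 CPM with raised flow. Cells with 10 or more Scgb1c1 UMIs numbered 81 of 294 in sham, 3 of 52 in LT and 2 of 98 with raised flow, and the cell with most held 217 UMIs in sham 3. Cells with exactly 1 Scgb1c1 UMI made up 27.6% to 38.9% of the double-positive BEC in sham, 48.3% to 57.1% in LT and 63.3% to 71.4% with raised flow. Ttr was at 1700, 1075 and 674 CPM in sham, 405, 425 and 411 in LT, and 275, 188 and 469 with raised flow.

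**Figure D2:**
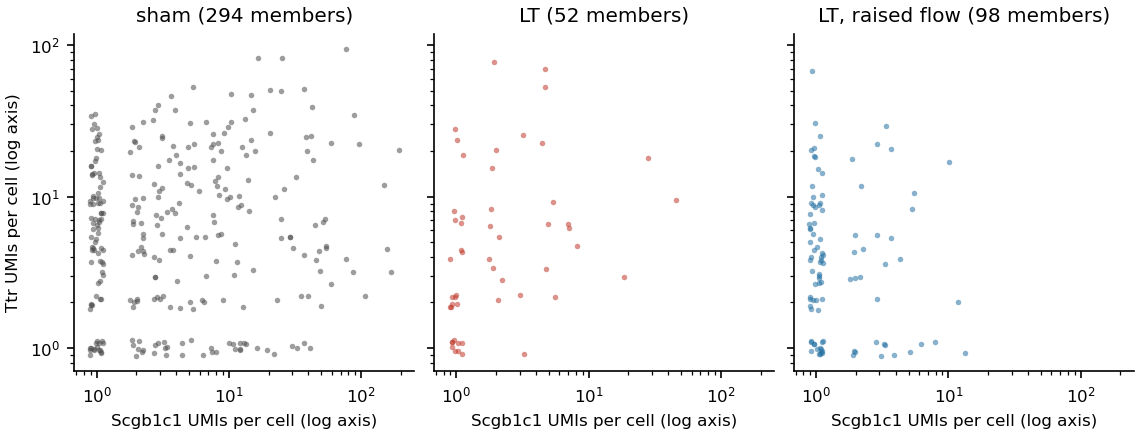
UMIs of Scgb1c1 (horizontal, log axis) and Ttr (vertical, log axis) in each double-positive BEC, with a small seeded jitter, by group. The sham cells extend to 217 Scgb1c1 UMIs, whereas most raised-flow cells sit at 1 UMI.

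The 2 genes met in the same cells. Ttr was found in 66.7%, 58.2% and 64.9% of Scgb1c1-positive BEC of sham 1, 2 and 3, against 10.5%, 14.8% and 15.8% of Scgb1c1-negative BEC. In the transplanted samples the first share was 28.6% to 57.1% and the second 2.58% to 15.2%. Detection of both genes rises with depth, so these shares are not corrected for it. Values of cells just inside and just outside the rule are given without a test, pooled over all 9 samples, for 3 genes chosen as extremes of the double-positive BEC as a whole. The 40 cells with exactly 1 UMI of each gene held 67.8 CPM of Lypd8, 72.3 CPM of Wfdc21 and 1839 CPM of Tf over all samples. The 238 BEC with 1 Scgb1c1 UMI and no Ttr held 3719, 1106 and 900 CPM of these genes, and the 1049 BEC with 1 Ttr UMI and no Scgb1c1 held 974, 227 and 1388 CPM.

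The double-positive BEC held more Sctr, Aqp5, Tf, Cp and Lbp and less Lypd8, Duox2 and Tff1 than other BEC. This contrast is the one the rule was drawn on, so it carries no test, and the ratios are medians over the 9 samples of log2(CPM + 10) in double-positive minus other BEC. Of 2855 genes with at least 50 CPM in either set, 41 (1.44%) had a median above 1 and 135 (4.73%) below -1. Sctr, the secretin receptor, was at 204, 236 and 260 CPM in the double-positive BEC of sham, 55.9, 152 and 270 in LT, and 130, 69.7 and 184 with raised flow. In other BEC it was at 24.1 to 76.2 CPM, and it was higher in the double-positive BEC of all 9 samples (median log2 ratio 1.54). Aqp5, a water channel, had a median ratio of 1.73, Car2, a carbonic anhydrase, 1.08, and Cftr, the chloride channel of bile secretion, 0.87, each higher in 9 of 9 samples.

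Tf (transferrin, which carries iron) was at 1526, 1077 and 1343 CPM in sham, 3638, 6764 and 2168 in LT, and 3699, 2226 and 1689 with raised flow. Other BEC held 231 to 1208 CPM, so the ranges overlapped, and the double-positive cells were higher within each of the 9 samples (median log2 ratio 1.68). Cp (ceruloplasmin, a copper-carrying ferroxidase) had a median log2 ratio of 1.76, Lbp (which binds bacterial lipopolysaccharide) 1.67, Apcs (serum amyloid P) 1.41 and C3 (the central complement protein) 1.22. Of the hepatocyte plasma protein list, 2 of 13 genes in the files reached 50 CPM. Alb (albumin) averaged 42.8 CPM against 3.59 in other BEC and was higher in 7 of 9 samples, and Apoa1, an apolipoprotein of hepatocytes, averaged 1.93 against 2.05.

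The other genes with the largest ratios were Sod3 (extracellular superoxide dismutase) at 2.02, Igfbp4 at 1.99, Ifitm3 (which restricts virus entry) at 1.97, LOC100912195 at 1.93, Bex4 at 1.78, Ccl20 (the ligand of CCR6) at 1.71, Igfbp7 at 1.56, Lcn2 (which binds bacterial siderophores) at 1.52, Tceal9 at 1.50, Cxcl1 (which attracts neutrophils) at 1.49, Hpn (hepsin, a membrane protease) at 1.45, Spp1 (osteopontin) at 1.44 and Fgfr2 at 1.41. Each was higher in 9 of 9 samples. Igfbp3 had a median of 1.36 and was higher in 7 of 9.

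The genes with the smallest ratios included several barrier and mucus genes. Lypd8, which keeps flagellated bacteria away from the gut epithelium, was at 1647 to 7105 CPM in other BEC and at 0 to 155 CPM in the double-positive BEC (median log2 ratio -6.33). Wfdc21 followed at -5.30, Upk3bl1 at -3.50, Duoxa2 at -3.44, AABR07053500.2 at -3.38, MGC105649 at -3.37, Tff1 (a trefoil peptide) at -3.36, Fcgbp (a mucus protein) at -3.12, Duox2 (which makes hydrogen peroxide at the cell surface, with Duoxa2 as its maturation factor) at -3.09 and Gprc5a at -3.08. All 10 were lower in 9 of 9 samples. Between double-positive BEC and other BEC of like depth (within the 10th to 90th percentile of the sample's double-positive cells, 350 against 9468 cells), the median ratio was -6.80 for Lypd8 and -3.53 for Duox2, and 1.53 for Sctr and 1.82 for Tf.

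**Figure D3:**
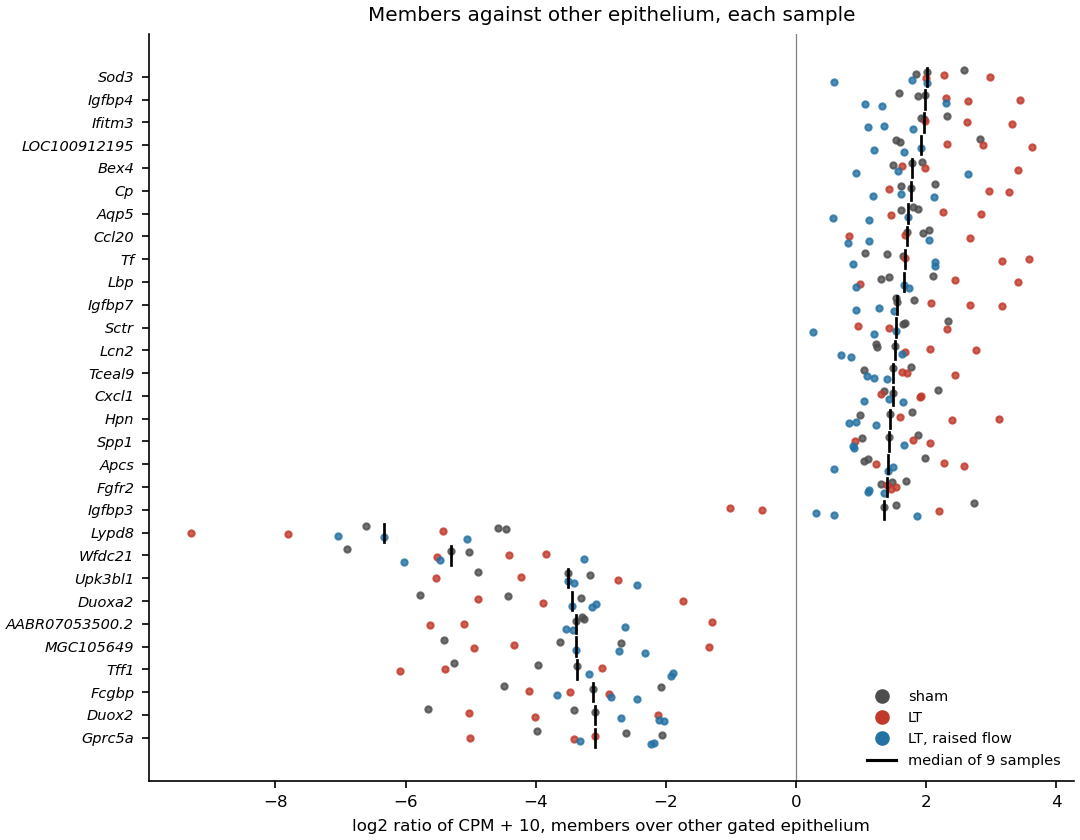
log2 ratio of CPM + 10 in double-positive over other BEC (horizontal) for the 20 genes with the largest and the 10 with the smallest median ratio, 1 point per sample and a line at the median of 9. In the upper 20 rows, 19 genes have every point above 0 and Igfbp3 has 7 of 9. In the lower 10 rows every point is below 0.

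By gene list, among members with at least 50 CPM in either set, 9 of 12 genes of bicarbonate and fluid secretion, 10 of 13 of the unfolded protein response and 9 of 12 chemokine and NF-kB genes had a positive median ratio. The list medians were 0.43, 0.12 and 0.39, beside 0.04 over all 2855 genes. In the same order 3, 0 and 2 genes had a median above 1, beside 1.44% of all 2855 genes. The unfolded protein response list thus lay near all genes. Mucins and trefoil factors had 8 of 10 genes with a negative median (list median -1.07), mucosal defense genes 8 of 11 (-0.71), hypoxia targets 9 of 12 (-0.42), MHC genes 9 of 11 (-0.34), and tuft cell genes 6 of 6 (-1.84). Of the biliary identity list, 8 of 15 were positive and 7 negative. Of the keratins of the gate, Krt8, Krt7 and Krt19 were lower than in other BEC in all 9 samples. Krt7 was at 199 against 1409 CPM in sham 1, 515 against 1392 in sham 2, 551 against 1364 in sham 3 and 185 to 267 against 1152 to 3629 in the transplanted samples. Krt19 was at 32.1 to 134 CPM against 124 to 224. Sox9 (0.41), a transcription factor of the biliary lineage, was on the positive side, and the tight junction gene Cldn4 (-1.35) on the negative side. Detoxification genes had 6 of 16 positive. No gene of the bile acid transport and enteroendocrine lists reached 50 CPM. Sst, a hormone gene that the gate bounds and these lists leave out, was at 132 and 102 CPM in double-positive BEC of sham 2 and 3. At day 1 it was at 124 CPM in LT and 76.6 with raised flow. Other BEC of these samples held 40.5, 12.2, 0.835 and 3.81 CPM, in the same order. In the double-positive BEC of the remaining samples it was at 0.

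BEC with only 1 of the 2 genes of the rule shared the profile in part. Against BEC with neither gene, Sctr had a median log2 ratio of 1.84 in double-positive BEC, 1.31 in the 405 BEC with Scgb1c1 alone and 0.67 in the 2479 with Ttr alone. Ifitm3 had 2.53, 1.79 and 1.19. Aqp5 had 2.80, 0.92 and 2.34, so that the cells with Ttr alone lay nearer to the double-positive BEC for this gene. Tf had 2.33, 1.69 and 2.34. Set directly against the cells with Ttr alone, double-positive BEC had a median ratio of 0.04 for Aqp5 (higher in 5 of 9 samples), 0.52 for Tf (6 of 9), 0.37 for Cftr (6 of 9) and 1.22 for Sctr (9 of 9). Against BEC with neither gene, Lypd8 had -6.72, -0.56 and -2.52. Within the double-positive BEC of sham, cells with 5 or more Scgb1c1 UMIs (5, 47 and 72 in sham 1, 2 and 3) were set beside cells with exactly 1 (7, 35 and 45). This is a description with no test, since Scgb1c1 is a gene of the rule and the genes were picked in the same cells. Of the 20 genes named as highest, 15, 19 and 20 were higher in the cells richer in Scgb1c1. In sham 1 Lbp (-0.10), Lcn2 (-0.18), Hpn (-0.26), Spp1 (-0.07) and Fgfr2 (-0.17) had negative log2 ratios. Igfbp4 had 2.59 in sham 2 and 2.95 in sham 3, and in sham 1 it was at 0 CPM in the 7 cells with 1 UMI. Akr1c15 went the other way, at -1.53, -0.49 and -0.99. The cells richer in Scgb1c1 averaged more UMIs than the others in sham 2 (12600 against 8669) and fewer in sham 3 (11540 against 14760).

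The change of the double-positive BEC with transplantation was tested on UMIs summed per sample. Cells with exactly 1 Scgb1c1 UMI were 92 of 150 in the transplanted samples and 87 of 294 in sham, so the groups also differed in make-up. The part of this in the gene differences was not tested. Only samples with at least 20 double-positive BEC entered, which left sham 2 and 3, LT at day 1 and all 3 raised-flow samples, so that sham 1 and LT at days 3 and 7 were left out of the fit. Genes of the rule were not tested. The groups shared 1 estimate of spread on 3 residual degrees of freedom. It came from the 2 sham samples and the 3 raised-flow samples of different days, so change between days is part of it. The tested difference was the mean of the LT and raised-flow groups minus sham. LT at day 1 thus weighed as much as the 3 raised-flow samples together. In edgeR's quasi-likelihood test with Benjamini-Hochberg adjustment, 15 of 8622 genes were higher (0.174%) and 18 lower (0.209%) in transplanted than in sham double-positive BEC at an adjusted p under 0.05, while 1369 passed an unadjusted p under 0.05. In 1960 of the tested genes (22.7%) the 4 transplanted and 2 sham samples did not overlap, and all 33 called genes were among them. With the 3 smaller samples in view, 16 of the 33 called genes still had all 3 sham samples on 1 side of all 6 transplanted ones. So had 561 of the 8622 tested genes (6.51%), all of which lie within the 1960 above. All 33 called genes were already among those 1960, so the share over all tested genes understates their background. The count rests on single samples. Leaving out sham 3 gave 2 genes, sham 2 gave 4 and raised flow at day 3 gave 4. It was 8 without LT at day 1, 81 without raised flow at day 7 and 714 without raised flow at day 1.

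Agr2, Spdef and Foxa3 rose, and Tff1 rose among the fitted samples only. Agr2, a protein disulfide isomerase needed for mucin folding, was at 464, 301 and 253 CPM in the double-positive BEC of sham 1, 2 and 3. It was at 3254, 1721 and 894 CPM in LT at days 1, 3 and 7 and at 5011, 2597 and 1146 with raised flow. Every transplanted sample lay above every sham sample, and day 1 was highest in both groups (log2 difference 3.74 ± 0.62 SE, edgeR adjusted p = 0.0484). The edgeR adjusted p was 0.336 without sham 2, 0.414 without sham 3, 0.0853 without LT at day 1 and 0.129 without raised flow at day 3, and 0.0434 with all 9 samples. Agr2 RNA was uneven among cells. It was detected in 209 of 444, and 1 cell held 52.6% of its UMIs in raised flow at day 1 and 88.6% in LT at day 3. Spdef, a transcription factor of goblet-type cells, was at 47.7, 23.0 and 25.2 CPM in sham against 84.1 to 294 in the transplanted samples, without overlap (3.02 ± 0.49, edgeR adjusted p = 0.0463). Among the fitted samples, Tff1 rose from 31.7 and 36.2 CPM in the 2 fitted sham samples to 98.5 to 294 in the 4 fitted transplanted ones (2.82 ± 0.36, edgeR adjusted p = 0.0205), but LT at day 7, which was not fitted, held 8.85 CPM against 4.34 in sham 1, and with all 9 samples it did not pass (edgeR adjusted p = 0.185). Foxa3, a forkhead factor of endoderm, was at 15.5 to 21.7 CPM in sham and 48.7 to 87.1 in the transplanted samples (2.28 ± 0.30, edgeR adjusted p = 0.0205).

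C3, Slpi and Ass1 also rose. C3 was at 486, 260 and 455 CPM in sham and 1032 to 4063 in the transplanted samples, without overlap (2.21 ± 0.36, edgeR adjusted p = 0.0463). Slpi, a secreted antiprotease, rose from 4.34 to 8.84 CPM to 32.7 to 72.9 (2.89 ± 0.45, edgeR adjusted p = 0.0463). After subtraction of free RNA its difference was -0.99 with an edgeR adjusted p of 0.771, so it did not pass under that setting. The part of free RNA in its rise was not tested. Ass1, an enzyme of arginine synthesis, was at 0, 2.38 and 6.19 CPM in sham and 49.5 to 359 in the transplanted samples (3.79 ± 0.42, edgeR adjusted p = 0.0205). The further large rises were of C4bpa (an inhibitor of complement, 3.78), Phyh (a peroxisomal fatty acid enzyme, 2.67), Nhp2 (2.65) and Syt8 (2.29). With all 9 samples Phyh and Nhp2 did not pass (edgeR adjusted p = 0.119 and 0.298). C4bpa and Syt8 did (0.0388 and 0.0228), though C4bpa had 1 UMI in LT at day 7 and 1 in sham 1.

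Akr7a3 (an aldo-keto reductase that reduces toxic aldehydes) and Pou2af1 (a coactivator of POU transcription factors) fell and did not overlap over all 9 samples. Akr7a3 was at 264 to 352 CPM in sham and 46.0 to 105 in the transplanted samples (-2.03 ± 0.32, edgeR adjusted p = 0.0463). Pou2af1 was at 34.7, 82.5 and 85.7 CPM in sham and 0 to 21.0 in the transplanted samples (-3.70 ± 0.47, edgeR adjusted p = 0.0205). Sncg (gamma-synuclein) and Rarres2 (chemerin, a secreted adipokine and chemoattractant) fell among the fitted samples. Sncg averaged 138 CPM in the 2 sham samples and 7.10 CPM in the 4 transplanted ones, and Rarres2 88.6 and 5.01 CPM. Both were high in LT at day 7, at 301 and 111 CPM, where 82.4% of Sncg and 60.0% of Rarres2 UMIs came from 1 cell each, and with all 9 samples neither passed (edgeR adjusted p = 0.365 and 0.206).

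**Figure D4:**
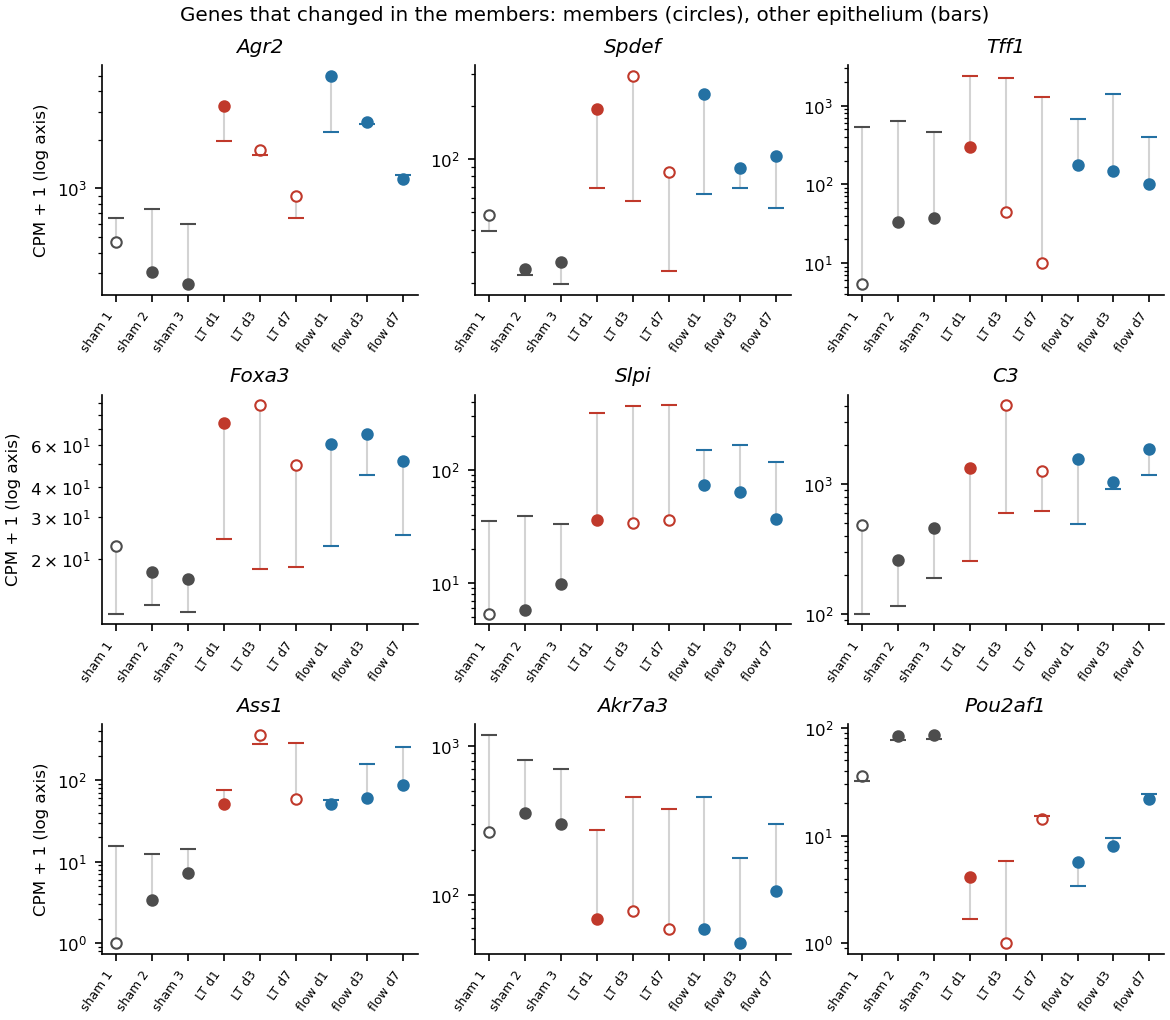
CPM + 1 (log axis) of 9 genes in double-positive BEC (circles, open where the sample had fewer than 20 cells and was not fitted) and other BEC (short bars) of each sample. Agr2, Spdef, Foxa3, Slpi, C3 and Ass1 are higher and Akr7a3 and Pou2af1 lower in every transplanted sample than in every sham sample. Tff1 overlaps through LT at day 7.

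RNA of other cell types moved with these groups, and its part in the results was not tested. Among the called genes that fell were the acinar enzymes Prss1, Ctrb1, Pnlip, Clps and Cela2a and the fibroblast collagens Col1a1 and Col3a1. The direction turned with all 9 samples for Prss1 (0.79), Ctrb1 (1.50), Clps (1.34) and Cela2a (0.60), and with free RNA subtracted for Prss1 (3.03) and Ctrb1 (3.18). Pnlip had 81 UMIs in the fitted sham samples and 0 in the fitted transplanted ones, and so was at least 24.8-fold lower in these (floor of 3 counts over the group). It was at 1568 CPM in LT at day 3 and 22.1 in LT at day 7, and with all 9 samples its difference was -1.21 (edgeR adjusted p = 0.897). Col1a1 and Col3a1 did not pass with all 9 samples either (0.185 and 0.128). Acinar RNA was not low in every transplanted sample, since the 7 acinar genes summed to 17884 CPM in LT at day 3 and 282 to 533 CPM in sham, and all Prss1 UMIs of that LT sample came from 1 cell. The 4 fibroblast genes summed to 13.0, 194 and 149 CPM in sham and 6.21 to 84.1 in the transplanted samples. The 5 neutrophil genes summed to 3.17 to 4.34 CPM in sham and 17.7 to 288 in the transplanted samples. Smooth muscle genes reached 1862 CPM in LT at day 7 against 5.18 to 53.5 elsewhere. The 6 myeloid genes summed to 29.9 to 457 CPM, the 5 endothelial genes to 0 to 24.3 and the 4 hepatocyte genes to 13.5 to 146. The T and NK cell genes summed to at most 10.5 CPM with Cd3d at 0, and the 4 B and plasma cell genes were at 0 in all double-positive BEC.

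By list, the mucin and trefoil genes had 3 of 9 tested genes that rose and none that fell (median 0.72), and the mucosal defense genes had 2 of 12 that rose (median 1.42). Over all 8622 genes tested, 0.174% rose and 0.209% fell, with a median of -0.03. Of the mucin genes Tff1 did not pass with all 9 samples, and of the defense genes Slpi turned to -0.99 with free RNA subtracted. Biliary identity genes had 1 of 18 that rose, and detoxification genes 1 of 19 that fell with 5 of 19 positive. Gastric surface genes had 1 of 2 that rose, which is Tff1 and is also counted among the mucin and trefoil genes. Acinar genes had 3 of 6 that fell, of which Prss1 and Ctrb1 turned direction as given above, and fibroblast genes 2 of 3 that fell. No gene of bicarbonate and fluid secretion (15 tested, median 0.22) passed the test, and Sctr had a difference of -1.33 with an edgeR adjusted p of 0.133. None passed among the unfolded protein response (13 tested, median 0.74), hypoxia (17, 0.38), immediate early (16, -0.32), chemokine and NF-kB (14, 0.15), interferon-stimulated (15, 0.38), EMT and TGF-β (15, -0.54), cell cycle (12, 1.11, all positive), tuft (6, -0.53), enteroendocrine (6, -0.17), hepatocyte plasma protein (6, 0.98), goblet (3, -0.43) and bile acid (2, -1.10) lists. Reg3g, an antimicrobial lectin, was highest at day 1 in both transplanted groups. It was at 33540, 196 and 13.3 CPM in LT and 19807, 4721 and 1950 with raised flow, against 1910 to 3594 in sham, and its difference did not pass (2.91, edgeR adjusted p = 0.181).

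LT against sham in the same fit rested on LT at day 1 alone, since no other LT sample reached 20 double-positive BEC. The spread in this comparison comes from the sham and raised-flow samples alone, and the lone LT sample is assumed to vary like them. In edgeR's test, 5 of 8622 genes were higher (0.0580%) and 2 lower (0.0232%), with 1393 genes at an unadjusted p under 0.05. Phyh, Nhp2, Tff1 and Ass1 rose by 3.72, 3.70, 3.47 and 3.74 on the log2 scale. Ndufa4l2, a hypoxia-inducible mitochondrial protein, had 59 UMIs in 6 cells of LT at day 1, 45.8% of them in 1 cell, and 0 in the fitted sham samples, and so was at least 71.8-fold higher (floor of 3 counts over the group). Sncg had 516 UMIs in the fitted sham samples and 0 in LT at day 1 (at least 44.4-fold lower), and Rarres2 303 and 0 (at least 28.5-fold lower). These bounds hold for LT at day 1 alone. With all 9 samples the LT difference was -0.25 for Sncg and -1.26 for Rarres2 (edgeR adjusted p = 0.964 and 0.638), and Phyh, Nhp2 and Tff1 did not pass either (0.134, 0.234 and 0.261), while Ass1 did (0.045). No gene passed in edgeR's test when sham 2, sham 3 or raised flow at day 3 was left out (566, 576 and 1246 genes at an unadjusted p under 0.05), 15 passed without raised flow at day 7, and 1184 without raised flow at day 1.

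The other BEC of the same 6 samples had a graft difference of the same sign for all 33 called genes. They share these samples, so this is no independent support, and the difference between the 2 responses was tested as an interaction with sample as a block. In edgeR's test, 12 of 12239 genes had a graft response that was higher in double-positive than in other BEC (0.0980%) and 14 lower (0.114%), with 709 at an unadjusted p under 0.05. Agr2 rose more in double-positive BEC (interaction 1.77 ± 0.28, edgeR adjusted p = 0.0118). It was below other BEC in each of the 3 sham samples, at 253 to 464 against 599 to 741 CPM, and above them in 5 of 6 transplanted samples. In LT at day 3 and raised flow at day 1, which are among these 5, most Agr2 UMIs came from 1 cell each, as given above. With all 9 samples the interaction was 1.39 (edgeR adjusted p = 0.0709). Sncg and Rarres2 fell more in double-positive BEC, by -3.08 ± 0.40 (adjusted p = 0.00154) and -3.59 ± 0.48 (adjusted p = 0.00156) in edgeR's test, in the fit that leaves out LT at day 7. With all 9 samples the interaction was -1.39 for Sncg and -2.04 for Rarres2, and neither passed (edgeR adjusted p = 1 and 0.648). For C3, Ass1, Foxa3 and Pou2af1, edgeR's interaction had an adjusted p of 0.85 to 1, which does not show that the responses were alike.

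The MHC class II genes RT1-Da, RT1-Db1 and Cd74 are given by day, as values with no test of day, since each day had 1 sample per transplanted group. RT1-Da was at 47.7, 7.93 and 19.9 CPM in the double-positive BEC of sham. It was at 28.0, 1231 and 1411 CPM in LT at days 1, 3 and 7 and at 14.0, 685 and 1552 with raised flow. RT1-Db1 was at 39.0, 6.35 and 13.3 CPM in sham, 19.7, 860 and 1637 in LT, and 26.2, 675 and 1207 with raised flow. Cd74, the invariant chain, was at 21.7 to 38.0 CPM in sham, 52.8 and 52.3 CPM at day 1 and 2056 to 3989 CPM at days 3 and 7. In both graft groups the day 1 sample stood near sham and the later samples far above it. This difference between days is part of the spread in the test of transplanted against sham. No MHC gene passed in transplanted against sham double-positive BEC (0 of 13 tested, all 13 positive, median 2.70; Cd74 edgeR adjusted p = 0.241). The interaction passed for RT1-Da (2.10 ± 0.37, edgeR adjusted p = 0.0223) and RT1-Db1 (2.13 ± 0.36, adjusted p = 0.0154), both of which were below other BEC in all 3 sham samples. RT1-Da was at 53.0 to 108 CPM in the other BEC of sham and 499 to 2058 CPM in those of days 3 and 7. At day 1 it was at 17.9 CPM in the other BEC of LT and 15.1 with raised flow, below all 3 sham samples. Its interaction did not pass without sham 2 (edgeR adjusted p = 0.142), without raised flow at day 7 (0.0645) or with all 9 samples (0.0677), and neither gene passed after subtraction of free RNA (0.0675 for RT1-Da and 0.0677 for RT1-Db1). Cells with RT1-Da RNA numbered 8 of 18, 10 of 113 and 29 of 163 in sham. They were 4 of 29, 3 of 7 and 15 of 16 in LT at days 1, 3 and 7, and 7 of 40, 28 of 30 and 27 of 28 with raised flow.

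**Figure D5:**
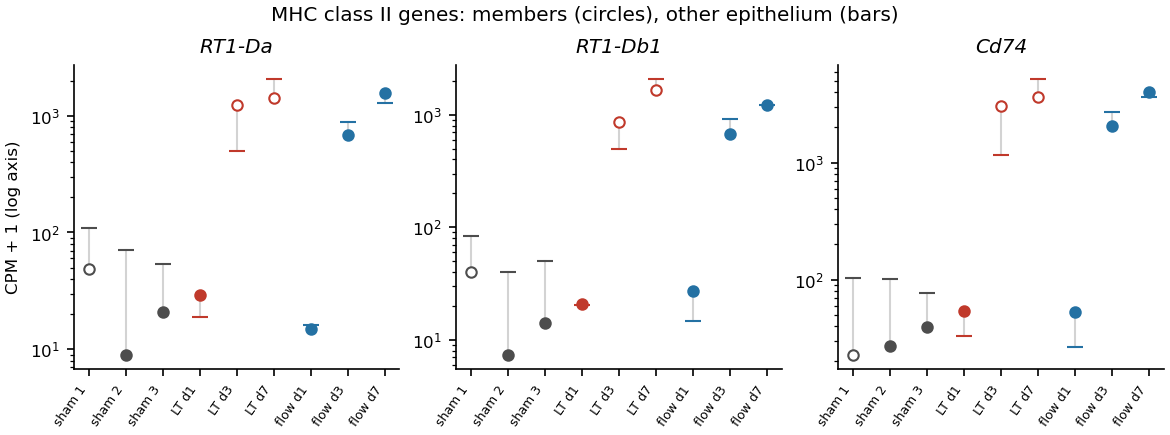
CPM + 1 (log axis) of RT1-Da, RT1-Db1 and Cd74 in double-positive BEC (circles, open where not fitted) and other BEC (short bars) of each sample. Sham and day 1 samples lie under 60 CPM in the double-positive BEC, and all samples of days 3 and 7 lie above 600 CPM.

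Raised flow against LT could not be fitted at matched days, since LT had 20 cells only at day 1. The day 1 pair is 1 sample each, 40 and 29 cells, with no replicate check. In it 99 of 5740 genes (1.72%) differed by over 2-fold on the log2(CPM + 10) scale, 37 higher and 62 lower with raised flow. Agr2 was at 5148 CPM with raised flow and 3605 in LT, C3 at 1597 and 1488, and Sctr at 133 and 62.0, after TMM scaling. Bnip3, a hypoxia target, was at 24.0 CPM with raised flow and 137 in LT. Gp2 was at 192 and 21.8 CPM and Cxcl6, a neutrophil chemokine, at 704 and 194. Later days, without TMM scaling and with 7 and 16 cells in LT, did not all go this way. At day 3 raised flow and LT held 99.0 and 457 CPM of Gp2, 586 and 588 of Cxcl6 and 69.7 and 152 of Sctr. At day 7 they held 60.8 and 26.5 CPM of Gp2, 704 and 655 of Cxcl6 and 184 and 270 of Sctr. Over all 6 transplanted samples with day as a term, without a minimum of cells, 0 of 5625 genes passed in edgeR's test and 249 had an unadjusted p under 0.05.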

How the data were processed

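Per the labels, bile duct of 9 rat samples was sequenced on the 10x platform. The authors deposited unfiltered matrices of UMI counts. The submitters' processing notes name Cell Ranger 5.0.1 and Seurat 3.2.0, while the matrix headers name version 4. The genome build is not given in the sources used here. The kept barcodes held over 400 but under 6000 detected genes, with mitochondrial UMIs below 25% and hemoglobin UMIs below 3%. Counts of double-positive BEC were summed per sample and tested with edgeR 4.0.16 (TMM, filterByExpr, quasi-likelihood, Benjamini-Hochberg, threshold 0.05). The 14 genes of the gate and rule, 13 mitochondrial and 5 hemoglobin genes were not tested. Raised flow against LT was to be fitted with day as a term, which had no residual degrees of freedom, so values are given. Genes were named as the 10 largest differences in each direction past the threshold (without overlap of the groups for transplanted against sham and LT against sham) plus called genes of the fixed lists. For the description the 20 highest and 10 lowest median ratios were taken. The cells and lists were chosen with earlier results of these data known. In simulated counts on 8246 genes, 13% of 2-fold and 77% of 4-fold changes were recovered for transplanted against sham. The simulation gave all genes 1 dispersion (0.0698) and no difference between days or uneven cells, so recovery in the real counts may be lower. Alternatives included DESeq2 1.42.0.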

Additional observations from a re-analysis of the deposited data

Results flagged for a closer look

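In 26 genes the response to transplantation differed between double-positive and other BEC in the interaction test of edgeR, and the 10 with the largest difference in each direction are given. Values are the log2 response in double-positive BEC minus that in other BEC. Acinar and Reg genes had positive values, with 7.77 for Prss3b, 5.83 for Reg3a, 5.11 for LOC103689940, 4.88 for Reg1a and 4.20 for Ctrb1. In separate fits, log2 differences in other BEC were -10.20 for Prss3b, -6.07 for Reg3a, -6.59 for LOC103689940, -6.55 for Reg1a and -7.79 for Ctrb1. In double-positive BEC they were -4.35 for Prss3b, -1.73 for LOC103689940, -2.09 for Reg1a and -5.90 for Ctrb1. For Prss3b, LOC103689940, Reg1a and Ctrb1 a positive value is a smaller fall. Reg3a had no separate fit in double-positive BEC. There it was at 3.17 and 5.74 CPM in sham 2 and 3 and 0 to 9.34 in the fitted transplanted samples. Prss3b had 0, 6, 0 and 3 UMIs in the fitted transplanted double-positive BEC. LT at day 3, with 7 cells and not fitted, held 828 to 9704.5 CPM of these acinar and Reg genes. The fitted double-positive BEC held at most 97.2 CPM of LOC103689940. Fhl1 had 2.30, RT1-Db1 2.13, RT1-Da 2.10, Sgsm3 1.80 and Agr2 1.77.

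Negative values were -10.17 for Wnt7a, whose fitted transplanted double-positive BEC were all at 0, so that the fitted value depends on the prior count. They were -5.71 for Nppb, -5.55 for Gast, -4.94 for Krt80, -3.74 for Tagln, -3.59 for Rarres2, -3.38 for Mal, -3.08 for Sncg, -3.02 for Cldn1 and -2.25 for Filip1l. Some rest on few UMIs in double-positive BEC. Nppb had 8 and 5 UMIs in sham 2 and 3 and 0 to 6 in each fitted transplanted sample. Krt80 had 13 and 11 against 0 to 1, Cldn1 10 and 24 against 0 to 3, and Tagln 8 and 111 against 2 to 6. Nppb was at 46.0 CPM in other BEC of raised flow at day 1 and 0.794 and 0.258 in those of sham 2 and 3. The Gast value rests on 1 cell of sham 3 with 278 of that sample's 289 UMIs. It also rests on other BEC of raised flow at day 7, at 476 CPM against 2.63 to 26.2 in other BEC elsewhere. With all 9 samples RT1-Da, Sgsm3, Agr2, Wnt7a, Gast, Tagln, Rarres2, Mal, Sncg, Cldn1 and Filip1l no longer passed (edgeR adjusted p from 0.0677 for RT1-Da to 1 for Tagln and Sncg), and Tagln had -0.24 and Wnt7a -3.38.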

How the results depend on the processing

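The share of double-positive BEC was lower in transplanted samples under every gate tried, and leaving out 1 sample gave -6.00 to -3.05 percentage points. The 33 genes called for transplanted against sham became 102 with DESeq2 (63 higher, 39 lower), 653 without a low count filter, 14 with free RNA subtracted, 14 with the doublet rule, and 0 with each library as its own sample (990 at an unadjusted p under 0.05 in edgeR). The doublet and library settings also changed the samples fitted, since only sham 2, sham 3 and raised flow at days 1 and 3 (1 library each in the library setting) kept 20 cells, so their counts mix both changes, for the interaction too. Leaving out 1 sample gave 2 to 714. The 7 genes for LT against sham became 85 with DESeq2, 535 without the filter, and 0 to 1184 when 1 sample was left out. The 26 interaction genes became 125 without the filter, 62 with the doublet rule, 61 by library, and 11 (without raised flow at day 1) to 46 (without LT at day 1) when 1 sample was left out. In DESeq2 the interactions of LOC103689940, Reg1a, Gast, Ctrb1, Tagln, Cldn1, Filip1l, Mal and Krt80 did not pass. Their DESeq2 adjusted p ran from 0.0874 for Krt80 to 0.99968 for LOC103689940, Reg1a and Gast. The cause of these changes was not tested. Signs turned with free RNA subtracted for Slpi (-0.99), Prss1 (3.03) and Ctrb1 (3.18). They turned with all 9 samples for Prss1 (0.79), Clps (1.34), Cela2a (0.60) and Ctrb1 (1.50), and with the doublet rule, on those 4 samples without LT, for the interactions of Prss3b (-0.94), Nppb (0.27) and Gast (0.87). Among values of named genes under alternatives, 130 of 278 for transplanted against sham kept their sign but no longer passed. This held for 28 of 69 for LT and 74 of 260 for the interaction. Values that turned sign are counted apart, 7 of 278 for transplanted against sham and 3 of 260 for the interaction.

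The day pairs LT with raised flow by label. The 99 genes over 2-fold at day 1 became 188 without the filter. Without the day as a replicate block 1 gene passed, and with day as a replicate block and all 6 transplanted samples 0 passed in edgeR (249 at an unadjusted p under 0.05). The all-9-sample fits and the depth-matched comparison were chosen after seeing the data. The rule of at least 3 UMIs was not run for genes, since only sham 2 and 3 kept 20 cells. The doublet and library settings were not run for LT against sham, nor DESeq2, left-out samples, doublets or libraries for the day 1 pair.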
